A study of Mus musculus with 6 samples.

Results

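The transcription factor gene Trp53 and 9 genes of its regulation and response were followed in mouse MLL-AF9 leukaemia cells with and without knockdown of Kdm1a. The 10 genes were Trp53 (ENSMUSG00000059552), Cdkn2a (ENSMUSG00000044303), Cdkn1a (ENSMUSG00000023067), Mdm2 (ENSMUSG00000020184), Ccng1 (ENSMUSG00000020326), Trp53inp1 (ENSMUSG00000028211), Phlda3 (ENSMUSG00000041801), Fas (ENSMUSG00000024778), Zmat3 (ENSMUSG00000027663) and Sesn2 (ENSMUSG00000028893). They were taken by Ensembl identifier, and all 10 were present among the 23770 gene rows of the deposited table. The MLL-AF9 fusion protein drives acute myeloid leukaemia, and Kdm1a encodes a histone lysine demethylase that works in transcriptional repressor complexes. The data were 3 control and 3 Kdm1a knockdown arrays. All samples were murine MLL-AF9 cells of C57BL/6 background enriched for leukaemia stem cells, and the growth protocol describes overnight infection of thawed cells with virus. Age of the animals, hairpin and time after infection are not stated in the labels. The design text speaks of 3 samples from 2 animals. Some samples of a group may therefore share an animal, and the p-values measure only the spread between these samples.

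Trp53 encodes p53, which is held low in unstressed cells because the ubiquitin ligase MDM2 marks it for destruction. Stress signals and the ARF product of Cdkn2a release p53 from MDM2, and p53 then activates genes that stop the cell cycle, repair damage or bring about cell death. Mdm2 is itself such a target, which closes a negative feedback loop. In MLL-fusion leukaemia cells, as in other tumour cells, activity of this pathway limits self-renewal and growth. Much of p53's control is exerted on the protein, which an array does not measure.

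p53 binds DNA as a tetramer at pairs of a 10-base half-site. RefSeq promoter windows (GRCm38.p6, 250 bases before to 50 after a start) were found for 8 of the 10 genes, 10 windows in all. A half-site that matched the search pattern exactly was present in 4 windows, those of Mdm2, Ccng1, Trp53 and the upstream start of Cdkn1a. Of all 32851 windows of that length 8.356% held one. The search pattern for the half-site reads the same on both strands, although a matched sequence need not. No mismatch was allowed. The 10 bases directly before the Ccng1 half-site and those directly after the second Cdkn1a half-site miss the pattern by a mismatch. They were not counted and stay in lower case. A pair of exact matches with at most 13 bases between them stood in the Cdkn1a window alone among these genes. Its spacer was 12, and 0.0731% of all windows held such a pair. The stretches with the half-sites are shown because p53 acts on its target genes through such elements. In 6 of the 10 windows there was no exact match, and neither elements with a mismatch nor elements outside the windows were searched. A single half-site is not the pair described above. Half-sites are in capitals, each stretch runs 5′ to 3′ on the gene's strand, and a match is a description and not a measured binding site.
Mdm2, chr10:117710905-117710974, minus strand: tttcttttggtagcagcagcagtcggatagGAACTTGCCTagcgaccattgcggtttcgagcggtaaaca
Ccng1, chr11:40755432-40755501, minus strand: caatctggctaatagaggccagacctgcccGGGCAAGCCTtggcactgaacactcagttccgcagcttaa
Trp53, chr11:69580254-69580323, plus strand: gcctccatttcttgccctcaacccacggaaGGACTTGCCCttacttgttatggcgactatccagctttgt
Cdkn1a, chr17:29090876-29090967, plus strand: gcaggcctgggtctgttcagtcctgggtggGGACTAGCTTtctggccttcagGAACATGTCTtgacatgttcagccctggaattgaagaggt
The half-sites began 186 bases before the start of Mdm2, 185 before that of Ccng1, 75 before that of Trp53, and 73 and 51 before the upstream start of Cdkn1a. The windows of Cdkn2a (2 starts), the downstream start of Cdkn1a, Fas, Phlda3 and Sesn2 held no such letters.

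The knockdown itself was present on the arrays. Kdm1a is listed on the platform under its older symbol Aof2, and the mean log2 value of its 23 exon probe sets was 8.08, 8.14 and 8.15 on the control arrays and 6.24, 6.01 and 6.23 on the knockdown arrays. The groups did not overlap, and the knockdown arrays held 25.7% of the control level, a log2 difference of -1.96 (SE 0.121; limma, adjusted p = 0.00722 over 18957 gene symbols). With 1 array left out at a time, the difference lay between -2.00 and -1.88, and its limma adjusted p rose above 0.05 without control replicate 2 (0.113), control replicate 3 (0.101), knockdown replicate 2 (0.0780) or knockdown replicate 3 (0.0810). Markers of the labelled cell type were present. Of 9 matched myeloid progenitor markers 7, among them Ptprc, Mpo and Meis1, lay in the highest 25% of symbols in the control arrays. Kit (percentile 70.9) and Csf1r (percentile 60.8) did not. The same held for 5 of 6 mature neutrophil markers, so this rank does not set progenitors apart from neutrophils. It held for 0 of 3 T cell markers and 0 of 1 erythroid marker. Of the B cell markers 1 of 3 and of the stromal or endothelial markers 1 of 4 lay in the highest 25%, and such ranks also depend on each probe's response. No marker of these lists passed the test between the groups.

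None of the 10 genes changed past the threshold in the knockdown (limma, adjusted p from 0.926 to 0.995). Over all gene rows 0.00421% passed it. The mean was higher in the knockdown for 7 genes and lower for 3, with 6 higher and 4 lower after median centring, without control replicate 1 or without control replicate 2, and 5 of each without knockdown replicate 2 or without knockdown replicate 3. The median difference was 0.08 against -0.02 over all rows. At an unadjusted p under 0.05 stood 1 gene, Fas, which was lower, where 5.28% of all rows met that p. The groups did not overlap for 2 of the 10 genes, Cdkn1a and Fas, against 10.6% of all rows. The 95% interval of the difference stayed within 2-fold in both directions for all 10 genes, each interval taken on its own. It stayed within 1.5-fold for Cdkn2a, Cdkn1a, Mdm2, Ccng1 and Zmat3. Both bounds hold for the reported fit only. The difference was 0.21 for Mdm2 after quantile normalization and 0.30 for Cdkn2a from symbol means. It was 0.52 for Trp53 without knockdown replicate 1, and the intervals of these other fits are not given here.

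**Figure D1:**
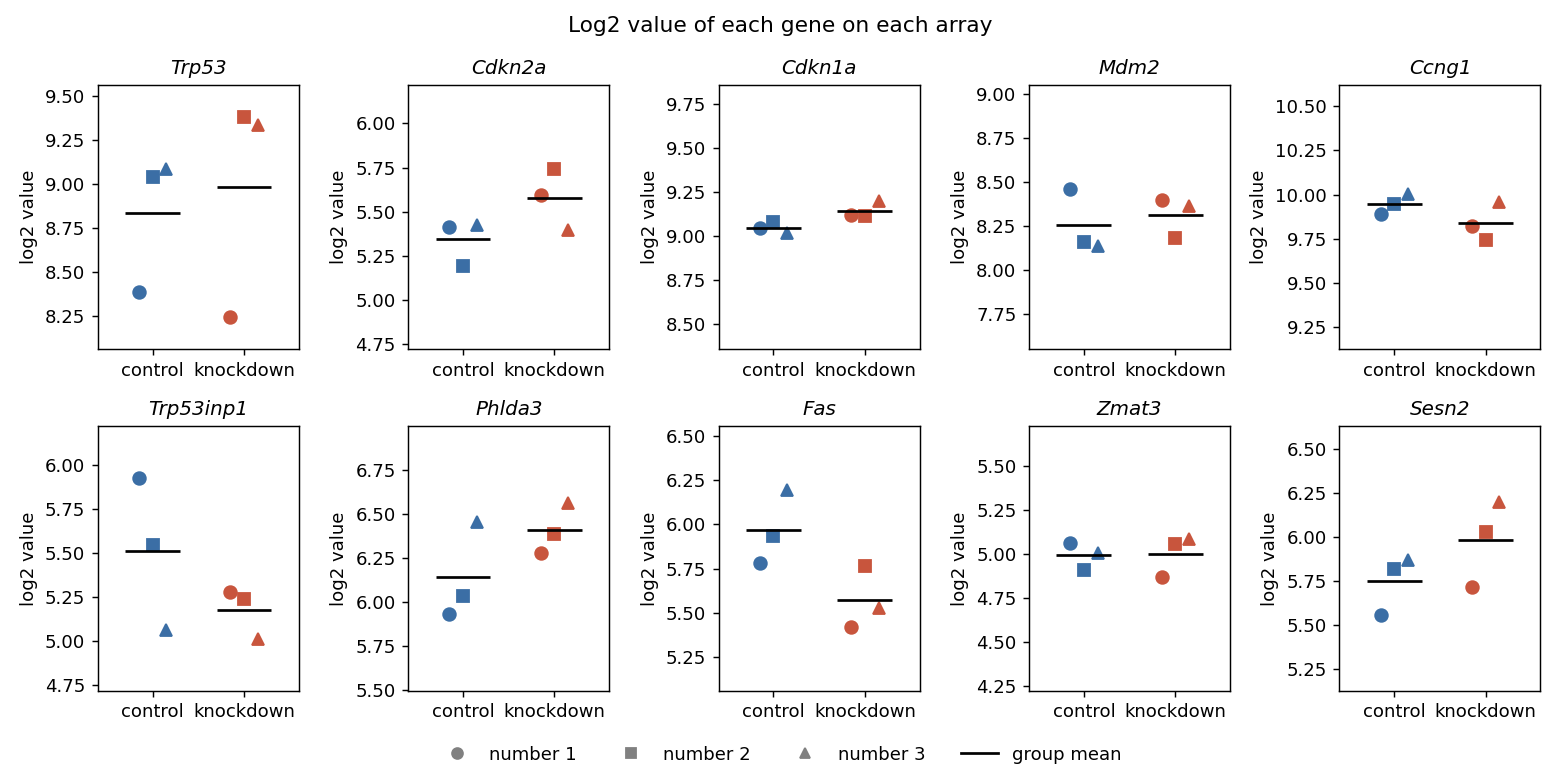
Log2 value (vertical axis, the same span of 1.5 in each panel) of each gene on the 3 control and 3 knockdown arrays. The marker shape is the replicate number and the line is the group mean. Trp53 was lowest on the arrays numbered 1 of both groups, at 8.39 and 8.25, and the groups were separate only for Cdkn1a and Fas.

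Trp53 itself varied more between arrays of 1 group than between the groups. Its log2 value was 8.39, 9.04 and 9.09 on the control arrays and 8.25, 9.38 and 9.33 on the knockdown arrays. Both arrays numbered 1 were low, the other 4 lay between 9.04 and 9.38, and the groups overlapped. The group means were 8.84 ± 0.391 (SD, n = 3) and 8.99 ± 0.642 (SD, n = 3), and the difference was 0.15 (SE 0.340; 95% interval -0.65 to 0.95; limma adjusted p = 0.972). This was the widest interval among the 10 genes and allowed anything from a 1.57-fold fall to a 1.93-fold rise. The difference turned to -0.08 without control replicate 1, to -0.05 without knockdown replicate 2 and to -0.03 without knockdown replicate 3, and with both arrays numbered 1 left out it was 0.29.

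The arrays on which Trp53 was low also had the highest values of mature neutrophil genes. The mean log2 value over 6 such markers, among them S100a8, S100a9 and Camp, was 10.3 on control replicate 1 and 9.95 on knockdown replicate 1, and 7.76 to 8.44 on the other 4 arrays. All 6 were measured and 5 of them lay in the highest 25% of symbols in the control arrays. By group the range of this mean was 8.36 to 10.3 in control and 7.76 to 9.95 in knockdown arrays. Kit, the receptor for stem cell factor and 1 of the 9 matched myeloid progenitor markers, divided the arrays the other way. It measured 5.37 on control replicate 1 and 5.08 on knockdown replicate 1 against 7.37 to 7.58 on the other 4 arrays. Mpo and Meis1 were also lower on both arrays numbered 1, whereas Itgam and Csf1r were higher there. Ptprc, Ctsg, Prtn3 and Hoxa9 did neither. The mean over these 9 markers was 8.21 on control replicate 1 and 8.10 on knockdown replicate 1, and 8.28 to 8.48 on the other 4 arrays. The part of mature or progenitor cells in the Trp53 values was not tested. In bulk samples, fewer cells with a transcript and less of it per cell cannot be told apart.

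Cdkn2a, which encodes the cyclin-dependent kinase inhibitor INK4A and the MDM2 antagonist ARF from separate first exons, had 1 row for both products. Its log2 value was 5.41, 5.19 and 5.43 in control and 5.60, 5.74 and 5.40 in knockdown samples. Knockdown replicate 3 lay within the control range, so the groups overlapped. With a difference of 0.23 (SE 0.145; 95% interval -0.11 to 0.57), the gene did not pass the test (limma adjusted p = 0.929).

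Mdm2, the ubiquitin ligase and feedback target, measured 8.46, 8.16 and 8.14 in control and 8.39, 8.18 and 8.36 in knockdown samples. The highest array was a control, and the groups overlapped. The difference was 0.06 (SE 0.144), and the interval from -0.28 to 0.40 left out a rise of 1.5-fold in the reported fit (limma adjusted p = 0.974). After quantile normalization the difference was 0.21, and the interval of that fit is not given here. On both arrays numbered 1, where Trp53 was low, Mdm2 was higher than on the other 4 arrays.

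Cdkn1a, the cyclin-dependent kinase inhibitor through which p53 halts the cell cycle in G1, had the most uniform values. It measured 9.05, 9.08 and 9.02 in control and 9.12, 9.11 and 9.20 in knockdown samples. All 3 knockdown arrays were above the controls, by a gap smaller than the spread within the knockdown group. The means were 9.05 ± 0.031 (SD, n = 3) and 9.14 ± 0.0462 (SD, n = 3), a 1.07-fold difference whose 95% interval ran from 0.887 to 1.29 (limma adjusted p = 0.942). Among all rows 4.5% were separated in this direction. Of its 6 exon probe sets 5 were higher and 1 lower, and the groups overlapped in all 6. The gene row was not the mean of these 6 and departed from it by up to 0.749 on an array.

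Ccng1 encodes cyclin G1, a p53 target that brings a phosphatase to MDM2. It measured 9.89, 9.95 and 10.004 in control and 9.82, 9.74 and 9.96 in knockdown samples. Knockdown replicate 3 lay among the controls. The difference was -0.11 (SE 0.123; limma adjusted p = 0.942), and it was 0.04 after quantile normalization.

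**Figure D2:**
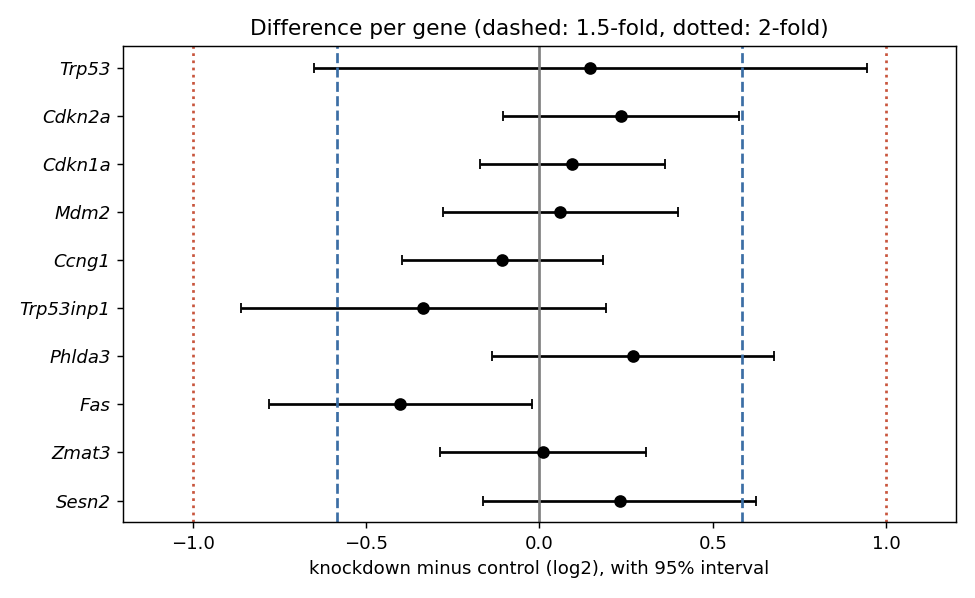
Knockdown minus control on the log2 scale (horizontal axis) for each gene, with limma's 95% interval; dashed lines mark 1.5-fold and dotted lines 2-fold. All 10 intervals lie between the dotted lines, and that of Fas, from -0.78 to -0.02, is the only one that does not include 0.

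Fas encodes a death receptor of the tumour necrosis factor receptor family and had the largest difference of the 10 genes. It measured 5.78, 5.93 and 6.20 in control and 5.42, 5.77 and 5.53 in knockdown samples. Each knockdown array was below each control, with a gap of less than 0.1 between knockdown replicate 2 and control replicate 1. The means were 5.97 ± 0.209 (SD, n = 3) and 5.57 ± 0.179 (SD, n = 3), so the control level was 1.32 times the knockdown level. The difference of -0.40 (SE 0.162; 95% interval -0.78 to -0.02) had an unadjusted p of 0.0413 and did not pass after adjustment over all rows (limma adjusted p = 0.926). Lower rows at such an unadjusted p made up 3.53% of the table, and rows separated in this direction 6.07%. An exact two-sided permutation test gave p = 0.1, the smallest possible for 3 against 3 arrays. The unadjusted p was 0.147 without control replicate 3, 0.125 without knockdown replicate 1, 0.0954 without knockdown replicate 3 and 0.0725 without control replicate 2.

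Trp53inp1 encodes a nuclear protein that promotes p53 activity and is induced by it. It measured 5.92, 5.55 and 5.06 in control and 5.28, 5.24 and 5.01 in knockdown samples. The control arrays were spread widely, and control replicate 3 fell within the knockdown range. The difference was -0.33 (SE 0.224; 95% interval -0.86 to 0.19; limma adjusted p = 0.932). It rested in part on single arrays, at -0.13 without control replicate 1, -0.56 without control replicate 3, -0.17 with array weights and -0.18 without both arrays numbered 1.

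Phlda3, Sesn2 and Zmat3 are p53 targets with other outputs. Phlda3 encodes a small protein that restrains AKT signalling, and it measured 5.93, 6.04 and 6.45 in control and 6.28, 6.39 and 6.56 in knockdown samples. Control replicate 3 lay above knockdown replicates 1 and 2. With a difference of 0.27 (SE 0.173; 95% interval -0.14 to 0.68), the gene did not pass the test (limma adjusted p = 0.929).

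Sesn2 encodes a stress-induced protein that restrains mTOR signalling. It measured 5.56, 5.82 and 5.87 in control and 5.72, 6.03 and 6.20 in knockdown samples. Its lowest values were those of the arrays numbered 1 in both groups, which were also the low arrays for Trp53. The difference was 0.23 (SE 0.168; 95% interval -0.16 to 0.63; limma adjusted p = 0.932).

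Zmat3 encodes a zinc finger protein that binds RNA. It measured 5.06, 4.91 and 5.00 in control and 4.87, 5.06 and 5.08 in knockdown samples, and the groups overlapped throughout. The difference of 0.01 (SE 0.127; 95% interval -0.29 to 0.31; limma adjusted p = 0.995) was the smallest of the 10 and had no stable sign: it was -0.03 after median centring and after quantile normalization.

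**Figure D3:**
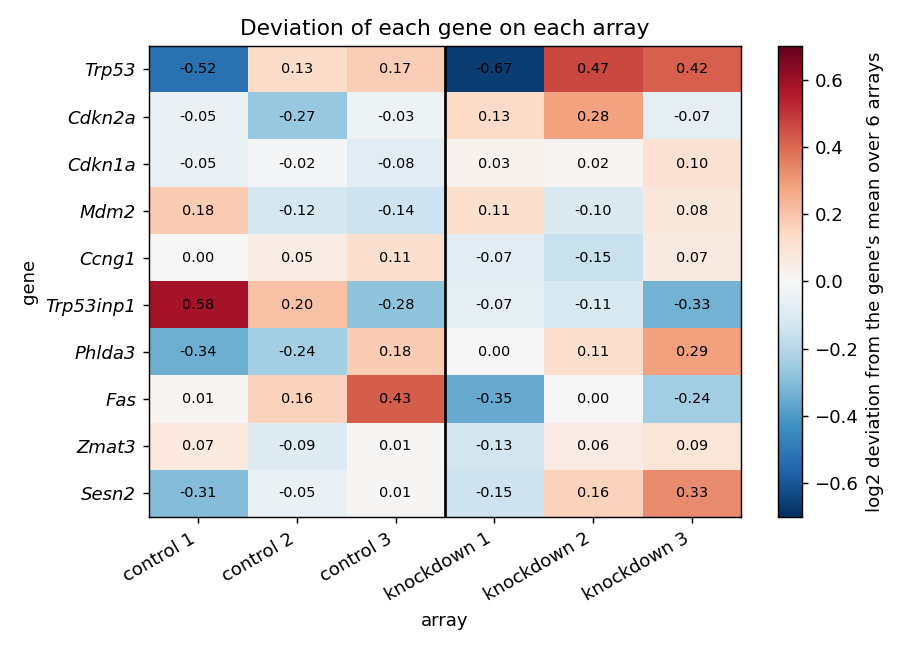
Deviation of each gene (rows) on each array (columns) from that gene's mean over the 6 arrays, on the log2 scale, with red above and blue below the mean. Trp53 was 0.52 and 0.67 below its mean on the arrays numbered 1, and no array had all 10 genes on 1 side.

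The 10 genes did not move as a block from array to array. The number above their own mean was 4, 4 and 6 on the control arrays and 4, 6 and 7 on the knockdown arrays. Knockdown replicate 3 was the highest of the 6 arrays for 4 genes and knockdown replicate 1 the lowest for 3. Trp53 spanned 1.13 over the 6 arrays and Trp53inp1 0.911, whereas Cdkn1a spanned 0.178 and Zmat3 0.216. Between same-numbered arrays, the knockdown was above the control for all 3 numbers in Cdkn1a, Phlda3 and Sesn2. It was below the control for all 3 in Ccng1, Trp53inp1 and Fas. The samples were treated as unpaired, and the share of all rows with such uniform signs was not computed. These signs are therefore only a description and not a result about the genes.

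The deposited exon probe sets gave a finer view for 9 of the 10 genes. Trp53 has no probe set under its symbol in the platform table used here. The 9 genes held 92 probe sets, with higher means in the knockdown for 49 and lower means for 43 (53 and 39 after quantile normalization). None passed adjustment over all 267824 probe sets (limma, smallest adjusted p = 0.908), as was the case for 0% of all probe sets, and 9 of the 92 had an unadjusted p under 0.05, against 5.3% of all. The groups did not overlap in 12 of the 92, or 13.04%, against 10.9% of all probe sets. Probe sets of 1 gene were measured in the same 6 samples and are not replicates of it. For Kdm1a, by comparison, 20 of 23 probe sets were lower without overlap, by up to 3.69, and none of these passed over all probe sets either (limma, smallest adjusted p = 0.408). At this number of arrays the adjusted test of single probe sets therefore also missed the targeted gene.

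Within Trp53inp1 the probe sets were divided. The groups were separate and lower in 3 of its 6 probe sets, against 6.08% of all. Probe set 5165405 measured 5.20, 4.54 and 3.75 in control and 3.00, 3.67 and 3.24 in knockdown samples, a difference of -1.19 (SE 0.389; limma adjusted p = 0.908). Probe set 4311753 measured 8.002, 7.43 and 7.27 against 7.23, 6.50 and 6.71, and probe set 4370734 measured 6.59, 6.40 and 6.28 against 6.16, 5.56 and 5.72. In all 3, the lowest control lay just above the highest knockdown value. The other 3 probe sets overlapped, with differences from -0.08 to 0.35. The positions of the probe sets in the gene were not used here.

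**Figure D4:**
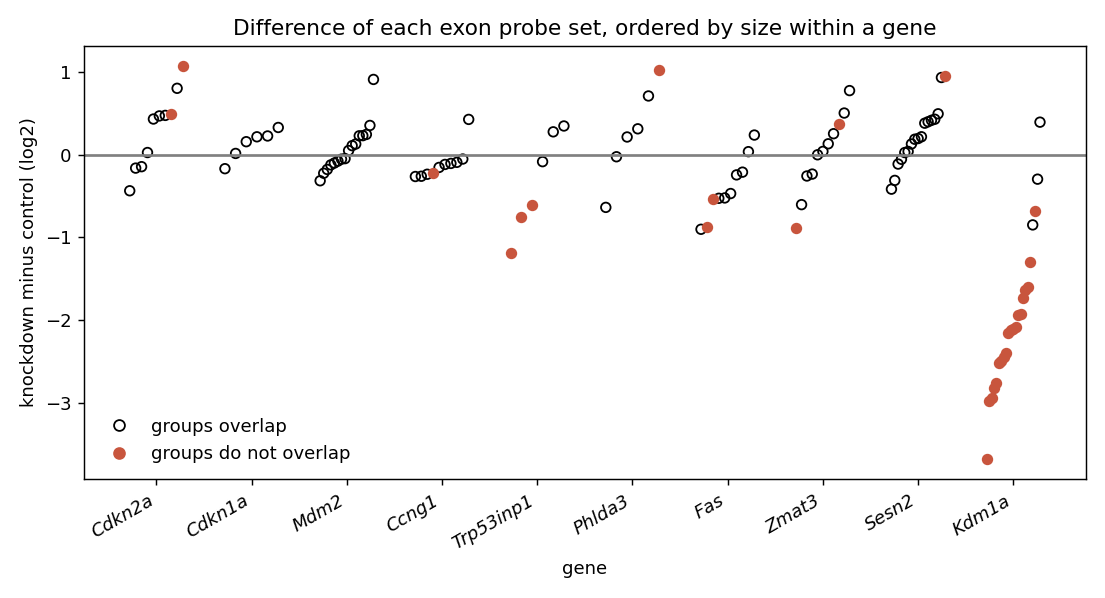
Knockdown minus control on the log2 scale (vertical axis) for every exon probe set of 9 of the genes and of Kdm1a; filled points are probe sets whose groups do not overlap. The points of the 9 genes lie on both sides of 0, while 22 of 23 Kdm1a probe sets lie below it.

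In Cdkn2a 7 of 10 probe sets were higher, and 2 of these were separate, against 4.79% of all probe sets. Probe set 4987274 measured 2.76, 2.57 and 3.58 in control and 3.98, 4.27 and 3.89 in knockdown samples, a difference of 1.08 (SE 0.318; limma adjusted p = 0.908). These are among the lower values of the table, and no detection call is given with them. Phlda3 had 1 separate probe set, 4868078, at 4.63, 5.39 and 5.19 in control and 5.80, 6.20 and 6.30 in knockdown samples, while its 5 others overlapped. In Fas 8 of 10 probe sets were lower and 2 of them separate, against 6.08% of all probe sets separated in this direction. Mdm2 was split evenly, with 8 of 16 higher and 8 lower (10 and 6 after quantile normalization), and none was separate. In Sesn2 13 of 17 were higher, and in Ccng1 9 of 10 were lower, with 1 separate probe set in each. Zmat3 had 1 separate probe set in each direction among its 11. Beside each of these counts stand the same shares of all probe sets, 4.79% separate and higher and 6.08% separate and lower.

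Other genes of the pathway were read from the mean of each symbol's probe sets. Of 44 listed genes, 43 were found, and 0 passed the test in either direction (limma, smallest adjusted p = 0.804). Over all 18957 symbols 0.00528% passed, and that 1 symbol was Kdm1a. Among the 43 genes 12 had higher and 31 lower means in the knockdown, but the split turned to 29 higher and 14 lower after quantile normalization. The median difference was -0.05, against -0.02 over all symbols, of which 45.4% were higher, and after quantile normalization these medians were 0.05 and 0.01. At an unadjusted p under 0.05 stood 2 of the 43, both lower, against 5.54% of symbols in either direction and 3.81% lower.

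The list of 12 regulators of p53 held the kinases Atm, Atr, Chek1 and Chek2, and also the p53 relatives Trp63 and Trp73. Of these 12 genes 11 had lower means, and 3 did after quantile normalization. The gene with a higher mean was Trp73, at 0.07 (SE 0.178). All but Usp7 overlapped between the groups. Usp7, a deubiquitinase of p53 and MDM2 that is named after its values were seen, measured 9.20, 9.21 and 9.30 in control and 8.80, 8.57 and 9.03 in knockdown samples. The difference of -0.43 (SE 0.146) had a limma adjusted p of 0.878. Symbols separated in this direction made up 6.16% of the table. Mdm4, the MDM2 relative that masks p53's activation domain, differed by -0.05 (SE 0.211; limma adjusted p = 0.984).

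Of the 26 further genes found that were listed as p53 targets, 9 had higher and 17 lower means, and the median was -0.06. After quantile normalization 15 were higher and 11 lower. The listing was not checked in these cells. The apoptosis genes Bbc3 and Pmaip1 differed by 0.06 (SE 0.113) and 0.16 (SE 0.153), and the DNA repair genes Xpc and Ddb2 by 0.19 (SE 0.187) and -0.02 (SE 0.153). Gadd45b, a stress sensor also named after its values were seen, had the largest difference of the 26 listed genes. It measured 6.86, 6.99 and 7.07 in control and 6.63, 6.50 and 6.54 in knockdown samples. The groups were separate, and the gene, at -0.42 (SE 0.118), missed the threshold (limma adjusted p = 0.804). The cyclin-dependent kinase inhibitors next to Cdkn1a and Cdkn2a in function, Cdkn1b, Cdkn2b and Cdkn2c, differed by -0.07 (SE 0.125), 0.14 (SE 0.141) and -0.08 (SE 0.352). Rb1 and E2f1, through which such inhibitors act on S-phase entry, differed by -0.00196 (SE 0.140) and 0.01 (SE 0.119).

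**Figure D5:**
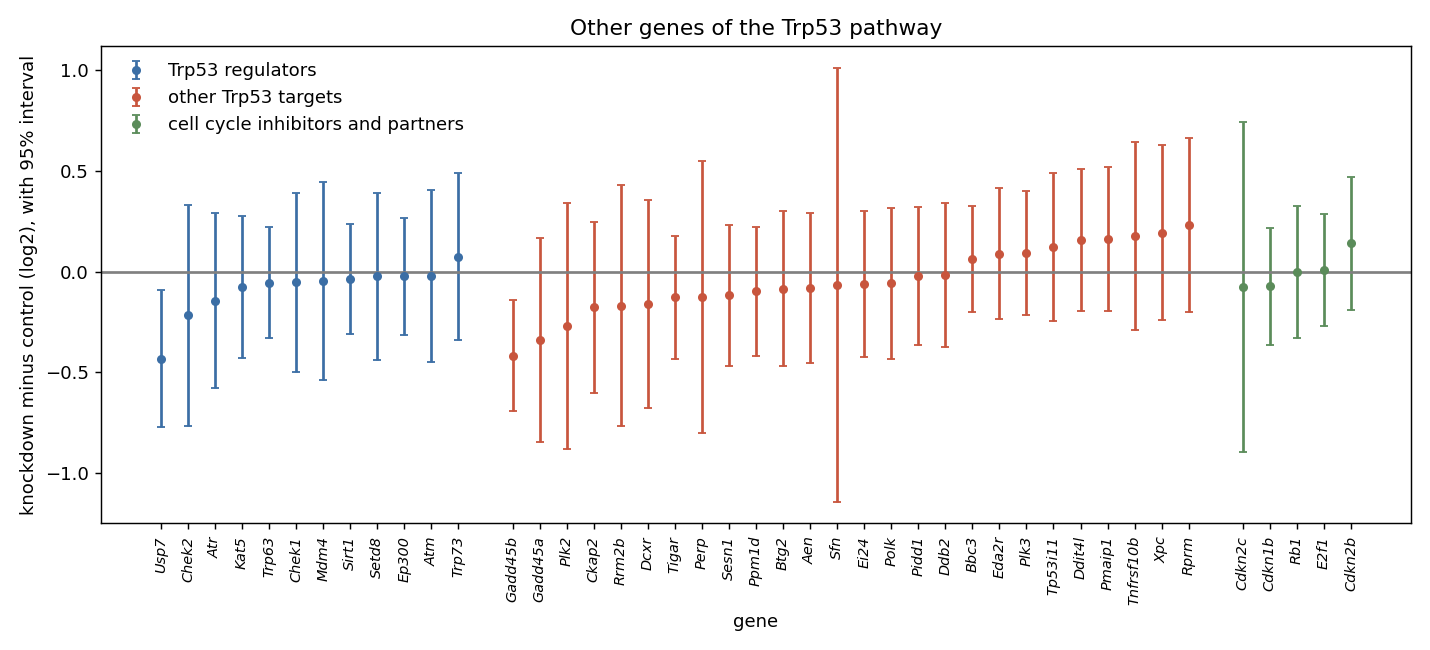
Knockdown minus control on the log2 scale (vertical axis) with limma's 95% interval for 43 other genes of the Trp53 pathway in 3 lists, each ordered by size. Only the intervals of Usp7 and Gadd45b do not include 0.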

How the data were processed

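Values are log2 expression from 6 arrays, deposited by the authors as 23770 gene rows and 267824 exon probe sets. The submitters' processing notes name RMA without a version, and the log2 scale was read from the values (0.931 to 12.9). The sources used here do not give the build. The number of arrays limits the precision. For Ccng1, Trp53inp1, Phlda3, Fas, Zmat3 and Sesn2 the row equalled the mean of the symbol's probe sets (tolerance 1e-06). It did not for Cdkn2a, Cdkn1a and Mdm2, which departed from that mean by up to 0.0586, 0.749 and 0.134 on an array. It could not be checked for Trp53. In GEO's platform annotation 242247 probe sets carry 1 symbol, 2077 several, and 23500 are not listed. Single-symbol sets were averaged per symbol, with older symbols matched through RefSeq synonyms.

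Knockdown and control were compared with limma (3.58.1, under R 4.3.3), using default eBayes on all 6 arrays without covariates, two-sided, with Benjamini-Hochberg adjustment over each whole table and a threshold of 0.05. The procedure was tested on simulated data. SE is the moderated standard error. Genes named by rule are the 10 members and Kdm1a. Members and lists were chosen with earlier results of these data known. Of 32 markers listed for 6 cell types 26 were found. Alternatives were a replicate block, a random replicate effect, quantile normalization, median centring, 2 filters on low rows, a trend with a robust prior, array weights, symbol means, looser thresholds and leaving out each array. Leaving out both arrays numbered 1, and the alternatives for Kdm1a, were chosen after seeing the data.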

Additional observations from a re-analysis of the deposited data

How the results depend on the processing

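In all 16 alternative fits and at the looser threshold of 0.1, 0 of the 10 genes passed (smallest limma adjusted p = 0.491). At an unadjusted p under 0.05 the count was 1 in the reported fit, Fas. The genes under this looser limit differed between fits. After quantile normalization they were Fas and Phlda3. Without control replicate 3 they were Phlda3 and Trp53inp1, and Fas was not among them. None of the 10 genes was under it without control replicate 2, without knockdown replicate 1, without knockdown replicate 3 or without both arrays numbered 1. Of 158 differences refitted, 149 kept their sign. Outside the fits with 1 array left out, those that turned were Ccng1, at 0.0388 after quantile normalization, and Zmat3, at -0.0310 after quantile normalization and -0.0255 after median centring. With 1 array left out Trp53 ranged from -0.0783 to 0.517 and Zmat3 from -0.0321 to 0.0769, while Mdm2 ranged from 0.00357 to 0.165, Ccng1 from -0.166 to -0.0563, Phlda3 from 0.165 to 0.425 and Sesn2 from 0.124 to 0.363 and kept their sign. The median over the 10 genes was 0.08 as reported and 0.22 after quantile normalization, where that over all rows was 0.01, and ranged from 0.00485 to 0.0913 with 1 array left out, lowest without knockdown replicate 3. The count of rows called over the whole table was 1. It was 0 with the replicate block, after quantile normalization and without both arrays numbered 1, ranged from 0 to 0 with 1 array left out, and was 1255 at an unadjusted p under 0.05; the cause was not tested. Deviations from the group means correlated at 0.543, 0.0806 and 0.251 between same-numbered arrays, and 1 of these is under 0.1, so samples were treated as unpaired. With the replicate block the median was 0.08, 0 members were called, and 2162 rows in place of 1255 had an unadjusted p under 0.05. With no detection calls, low values have no lower limit of measurement.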
